A study of Mus musculus with 6 samples.

Results

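The laminin chains are 9 of the 46983 genes counted in 6 RNA sequencing libraries of mouse embryonic fibroblasts: the alpha chain genes Lama1, Lama2, Lama3, Lama4 and Lama5, the beta chain genes Lamb1, Lamb2 and Lamb3, and the gamma chain gene Lamc1. They were chosen by name, with earlier results of these data known, and found by their Ensembl identifiers, and all 9 were matched. Of the libraries, 3 were labelled SphK2 null and 3 wild type, and the cells, at passage 16, derived from embryos of the C57BL/6 strain aged 14 days. The medium was DMEM with 10% FBS, to which antibiotics (pen/strep), non-essential amino acids and sodium pyruvate had been added. SphK2 is sphingosine kinase 2, a lipid kinase. How the null allele was made is not given in the sources used here, nor whether replicate libraries stem from different embryos, cultures or clones. The p-values therefore reflect the scatter among the sequenced libraries, part or all of which may be technical.

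Laminins are large secreted glycoproteins of basement membranes, the sheet-like matrix under epithelia and around muscle, fat, nerve and vessels. Each molecule joins an alpha, a beta and a gamma chain through a coiled coil, and its name lists the numbers of those chains, so that laminin-511 holds alpha 5, beta 1 and gamma 1. The C-terminal globular domains of the alpha chain bind integrins and dystroglycan at the cell surface, the gamma 1 chain binds nidogen, and the N-terminal domains of the short arms link laminins into a network. Because trimers are assembled before secretion, the set of chains that a cell transcribes limits which laminins it can make.

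Total counts ran from 16804841 to 19148434 in the null-labelled libraries and from 15598566 to 23681718 in the wild-type-labelled libraries. Sphk2, the gene named by the label, averaged 50.02 ± 1.35 CPM in null-labelled and 27.3 ± 0.907 CPM in wild-type-labelled libraries (SD, n = 3 each). Its counts were thus higher under the null label. As the allele is not given, gene counts cannot check the labels, so all directions here are between labels. CPM divide each count by the sum of its library over the genes tested, with TMM scaling for composition. Of 15199 genes tested, 79.2% differed between the labels at an edgeR adjusted p under 0.05, with a median log2 fold change of -0.02. All 13 fibroblast markers examined were lower in the null-labelled libraries, where 41.1% of all genes tested were lower. Their summed level was 3478 to 3515 CPM in the null-labelled libraries, against 15470 to 15940 CPM in the wild-type-labelled libraries. Thy1 had 0 counts in the null-labelled libraries and 4.49 ± 0.375 CPM in the wild-type-labelled ones, and Col3a1 stood there at 8.86 ± 0.423 CPM, against 3059 ± 76.6 CPM in wild-type-labelled libraries (SD, n = 3 each), while Vim, the filament protein vimentin, stood at 3211 ± 17.9 CPM in null-labelled and 5622 ± 115 CPM in wild-type-labelled libraries.

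For the marker counts that follow, the shares over all genes tested were 38.1% higher and 41.1% lower in null-labelled libraries. Among the 11 epithelial markers, which matter for laminins because epithelia produce them, 4 were tested, of which 2 were higher and 1 lower in null-labelled libraries. Krt8, a keratin of simple epithelia, stood at 396.5 ± 13.4 CPM in null-labelled and 106.9 ± 1.80 CPM in wild-type-labelled libraries (SD, n = 3 each), and made up most of the list's summed level of 384.9 to 411.7 CPM in null-labelled and 107.6 to 110.7 CPM in wild-type-labelled libraries. Krt7 stood at 1.27 ± 0.287 CPM in null-labelled and 0.054 ± 0.011 CPM in wild-type-labelled libraries, Cdh1 stayed below 1 CPM in every library, and Ovol2 had 0 counts under both labels. The lower marker, Krt18, named after its values were seen, stood at 0.289 ± 0.032 CPM in null-labelled and 1.19 ± 0.286 CPM in wild-type-labelled libraries. The 11 endoderm markers summed to 62.6 to 64.5 CPM in null-labelled and 214.1 to 223.2 CPM in wild-type-labelled libraries, with 2 higher and 4 lower of 6 tested, and Sox17 and Ttr at 0 in all libraries. Sox7 stood at 20.04 ± 0.416 CPM in null-labelled and 3.65 ± 0.384 CPM in wild-type-labelled libraries. Dab2 stood at 39.3 ± 0.647 CPM in null-labelled and 207.2 ± 4.72 CPM in wild-type-labelled libraries. Dab2 thus made up most of the endoderm sum under both labels, and the direction of the sum is that of Dab2. The 8 trophoblast markers summed to 19.9 to 20.6 CPM in null-labelled and 1.44 to 1.85 CPM in wild-type-labelled libraries, nearly all of it Hand1 in the null-labelled libraries (20.05 ± 0.213 CPM, against 0.136 ± 0.034 CPM in wild-type-labelled libraries), with 1 higher and 1 lower of 2 tested and Cdx2 at 0. The lower one was Eomes, at 0.109 ± 0.055 CPM in null-labelled and 0.931 ± 0.185 CPM in wild-type-labelled libraries. The 6 smooth muscle markers summed to 90.2 to 96.8 CPM in null-labelled and 295.1 to 314.6 CPM in wild-type-labelled libraries, with 2 higher and 3 lower of 5 tested. Of these, Acta2 stood at 0.941 ± 0.063 CPM in null-labelled and 201.7 ± 7.51 CPM in wild-type-labelled libraries. Smtn went the other way, at 85.7 ± 3.87 CPM in null-labelled and 59.7 ± 2.77 CPM in wild-type-labelled libraries, and made up most of the null-labelled sum. The 6 endothelial, 6 skeletal muscle, 5 Schwann cell and 6 blood cell markers each summed to at most 17.6 CPM in any library, with Emcn, Myod1, Myog, Pax7 and Cd3e at 0 counts in all 6. The part of these differences in the laminin results was not tested. In bulk RNA, fewer cells of a type and less RNA per cell cannot be told apart.

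The promoters of Lama5, Lamb1 and Lama2 are shown as the chains with a promoter window that rose, fell from a high level and fell to 2 counts. Lama4, which had the largest log2 fold change of the chains, is without such a window here. RefSeq promoter windows, from 250 bases before to 50 bases after a start site, were at hand for 5 of the 9 genes (Lama2, Lama5, Lamb1, Lamb2 and Lamb3). Sequences are from GRCm38.p6, read 5′ to 3′ along the gene: chr2:180225810-180226109 (minus strand) for Lama5, chr12:31265043-31265342 (plus strand) for Lamb1 and chr10:27616893-27617192 (minus strand) for Lama2. Capitals mark matches on either strand to GGGCGG (the GC box) and CCAAT.
Lama5: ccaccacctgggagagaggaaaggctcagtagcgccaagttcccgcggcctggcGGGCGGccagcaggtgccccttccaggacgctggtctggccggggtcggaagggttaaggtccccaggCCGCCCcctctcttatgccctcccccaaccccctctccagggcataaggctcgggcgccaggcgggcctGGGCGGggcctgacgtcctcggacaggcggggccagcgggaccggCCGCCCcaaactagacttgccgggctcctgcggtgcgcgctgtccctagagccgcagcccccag
Lamb1: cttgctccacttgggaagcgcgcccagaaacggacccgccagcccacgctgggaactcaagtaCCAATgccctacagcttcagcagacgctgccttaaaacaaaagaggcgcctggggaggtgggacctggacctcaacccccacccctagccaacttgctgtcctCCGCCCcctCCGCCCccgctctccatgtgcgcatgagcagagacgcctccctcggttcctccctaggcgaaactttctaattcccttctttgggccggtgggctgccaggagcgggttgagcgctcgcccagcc
Lama2: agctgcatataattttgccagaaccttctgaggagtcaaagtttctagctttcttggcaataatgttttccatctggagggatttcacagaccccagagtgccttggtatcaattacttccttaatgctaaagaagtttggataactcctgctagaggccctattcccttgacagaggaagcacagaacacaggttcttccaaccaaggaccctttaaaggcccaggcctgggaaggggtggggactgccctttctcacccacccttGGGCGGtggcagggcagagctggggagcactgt
The RefSeq starts of Lama2 and Lamb1 lie inside the genes as the deposited files annotate them. For Lama2 the whole window does, since the gene, on the minus strand, reaches to 27619758. Whether the Lama2 window is the promoter of the transcripts counted was not tested. The Lama5 window held 4 GC boxes and 24 CpG dinucleotides, the Lamb1 window 2 GC boxes, 1 CCAAT and 18 CpG, and the Lama2 window 1 GC box, downstream of the start, and 1 CpG. Over 32841 promoter windows of the same length the median was 7 CpG, and 35.7% held a GC box and 37.4% a CCAAT. The TATA box (TATAAA), held by 13.6% of windows, and the AP-1 motif (TGANTCA), held by 7.81%, were searched for on both strands as well and had no match in these 3 windows. The matches shown do not overlap each other, and a match is a string of letters, not a shown binding site.

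Of the 9 laminin chain genes, 6 fell and 1 rose in null-labelled cells, against 41.1% lower and 38.1% higher of all genes tested. Another, Lamb3, was tested and did not pass, and Lama1 had too few counts to be tested. The 8 tested chains had a median log2 fold change of -0.62. In 7 of the 8 tested chains the groups did not overlap, which was the case for 79.9% of all genes tested and is thus a share near the background. The plot of chain levels by library gives all values.

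**Figure D1:**
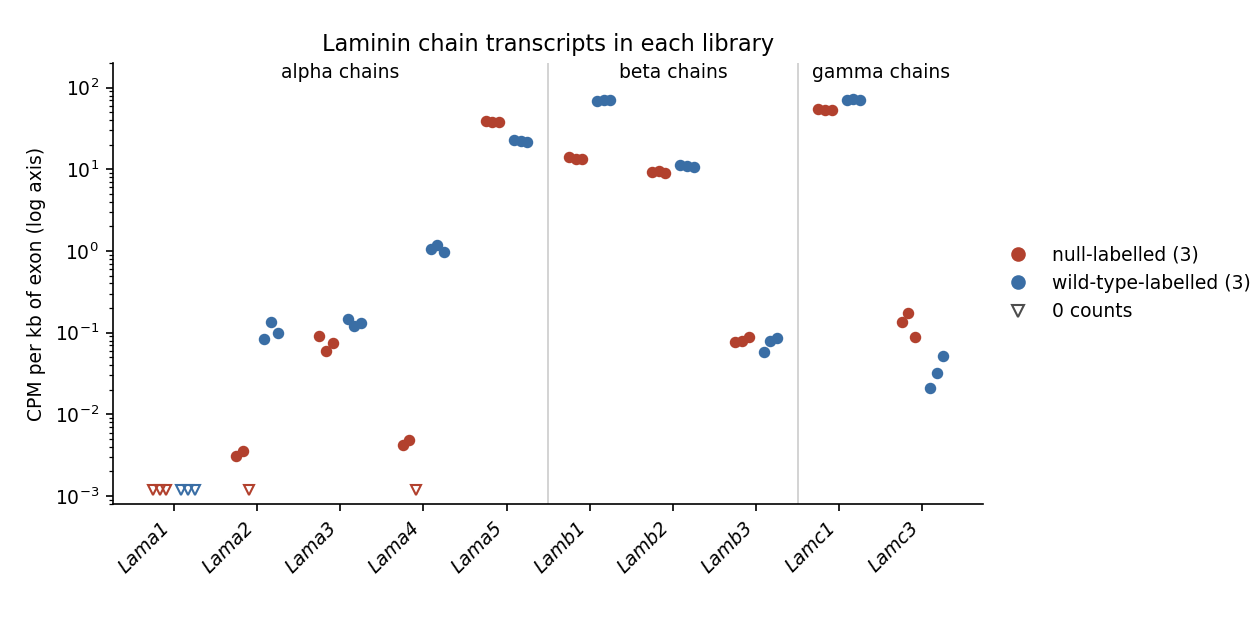
Transcript level of each laminin chain gene in each library, in CPM per kb of exon on a log axis, with null-labelled libraries left and wild-type-labelled libraries right of each tick, and open triangles at the bottom for libraries with 0 counts. Lama5, Lamb1, Lamb2 and Lamc1 are the abundant chains under both labels, and Lama2 and Lama4 have 1 or 0 counts in each null-labelled library.

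Lama5 was the abundant alpha chain under both labels and the only one of the 9 genes that rose. It encodes alpha 5, the alpha chain of laminin-511 and laminin-521, which is widespread in embryonic and adult basement membranes. Lama5 (ENSMUSG00000015647) is a minus-strand gene at 180176373 to 180225859 on chromosome 2 (GRCm38, as in the deposited files), with 11388 exonic bases. It stood at 439.7, 426.0 and 431.1 CPM in the null-labelled libraries, against 256.9, 251.7 and 248.9 CPM in the wild-type-labelled libraries. Every null-labelled library was above every wild-type-labelled one, and the libraries of a group lay close together. On the log2 scale it rose by 0.78 ± 0.025 (SE), or 1.71-fold (edgeR adjusted p = 7.65e-216).

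Lama4, which encodes the alpha 4 chain of laminins in vessel walls, muscle, fat and other mesenchymal tissues, fell to 2 counts in all. Alpha 4 lacks most of the short arm of the other alpha chains: its longest annotated coding sequence, in GENCODE M21 on the same build, has 1816 codons, against 3118 for Lama2 and 3718 for Lama5. Lama4 (ENSMUSG00000019846) spans 38965515 to 39110188 on the plus strand of chromosome 10. The counts were 1, 1 and 0 in the null-labelled libraries, against 299, 215 and 221 in the wild-type-labelled libraries, where the level was 12.8 ± 1.27 CPM (SD, n = 3). Summed over libraries this was 2 counts against 735, a ratio of wild-type-labelled over null-labelled of 353.5 with a 95% counting interval of 97.5 to 2920, and an edgeR adjusted p = 1.23e-184. The interval covers counting error only.

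Lama2, the alpha chain of the laminin-211 of muscle and peripheral nerve basement membranes, whose loss causes a congenital muscular dystrophy in people and mice, was already scarce in the wild-type-labelled libraries. Lama2 (ENSMUSG00000019899) is a minus-strand gene at 26980036 to 27619758 on chromosome 10. It had 1, 1 and 0 counts in the null-labelled libraries, against 32, 34 and 31 in the wild-type-labelled libraries, or 1.38, 2.23 and 1.62 CPM there. The ratio of wild-type-labelled over null-labelled was 46.7 with a 95% counting interval of 12.6 to 391, and the edgeR adjusted p was 2.25e-24. The null-labelled side of both the Lama4 and the Lama2 ratio thus rests on 2 counts.

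Lama3, an alpha chain known from the anchoring structures of skin and other epithelia, was low under both labels and lower in the null-labelled libraries. Lama3 (ENSMUSG00000024421, plus strand of chromosome 18, 12333819 to 12583013) stood at 0.973, 0.642 and 0.800 CPM in the null-labelled libraries, against 1.59, 1.31 and 1.41 CPM in the wild-type-labelled libraries. These are 45 counts in all null-labelled and 84 in all wild-type-labelled libraries. Every null-labelled value was below every wild-type-labelled one, a log2 fold change of -0.84 ± 0.28 (SE; edgeR adjusted p = 0.00339). Gene counts add the short and long transcripts of Lama3, so these forms were not told apart. Of its 10745 exonic bases, 197 (1.83%) also belong to an exon on the other strand and give no count.

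Lama1, the alpha chain of laminin-111, known from the early embryo and from the matrix made by parietal endoderm, had 0 counts in all 6 libraries. None of its 9518 exonic bases is shared with another annotated gene. A count of 3, the limit that a count of 0 allows, is 0.154 to 0.175 CPM in a null-labelled and 0.129 to 0.197 CPM in a wild-type-labelled library. No difference in Lama1 was detectable at this depth.

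Among the beta chains, Lamb1 had the largest fall. Beta 1 is the beta chain of laminin-111, laminin-411 and laminin-511 and is widespread in the embryo. Lamb1 (ENSMUSG00000002900, plus strand of chromosome 12, 31265234 to 31329644) stood at 139.7, 131.1 and 132.0 CPM in the null-labelled libraries, against 675.3, 703.7 and 689.9 CPM in the wild-type-labelled libraries. No library came near the other group. Lamb1 fell by 2.36 ± 0.026 (SE) on the log2 scale, 5.13-fold, with an edgeR adjusted p too small to be represented by the software.

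Lamb2, whose product replaces beta 1 in laminins of the kidney filter, the neuromuscular junction and arterial walls, differed little. Lamb2 (ENSMUSG00000052911, plus strand of chromosome 9, 108479736 to 108490530) had 56.4, 57.5 and 54.3 CPM in the null-labelled libraries, against 68.5, 66.8 and 65.2 CPM in the wild-type-labelled libraries. The groups lay apart, with a log2 fold change of -0.26 ± 0.042 (SE; edgeR adjusted p = 2.78e-09).

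Lamb3, which encodes the beta 3 chain, known from the same epithelial anchoring structures, was near the limit of detection under both labels. Lamb3 (ENSMUSG00000026639, plus strand of chromosome 1, 193207699 to 193343878) had 10, 9 and 11 counts in the null-labelled libraries, against 9, 8 and 11 counts in the wild-type-labelled libraries. The groups overlapped, and the log2 fold change of 0.15 ± 0.38 (SE) did not pass the test (edgeR adjusted p = 0.723). The ratio of null-labelled over wild-type-labelled counts was 1.11 with a 95% counting interval of 0.643 to 1.93.

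Lamc1, the gamma 1 chain that takes part in most known laminins and holds the nidogen binding site, had the highest level of the chains described here in the null-labelled libraries, in CPM and per kb of exon. Lamc1 (ENSMUSG00000026478, minus strand of chromosome 1, 153218922 to 153332786) stood at 451.8, 441.7 and 442.6 CPM in the null-labelled libraries, against 583.4, 594.3 and 590.2 CPM in the wild-type-labelled libraries. It was lower in each null-labelled library, at a log2 fold change of -0.40 ± 0.023 (SE; edgeR adjusted p = 2.47e-68).

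Lamc3 is needed to name trimers. Lamc3, a gamma chain described in nerve, retina and brain (ENSMUSG00000026840, plus strand of chromosome 2, 31887291 to 31946539), had 16, 18 and 10 counts in the null-labelled libraries, against 3, 3 and 6 in the wild-type-labelled libraries, a log2 fold change of 1.90 ± 0.43 (SE; edgeR adjusted p = 1.49e-05). Of its exonic bases 6.27% are shared with a gene on the other strand and give no count.

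Set per length, the order of levels of the chains shifted between labels. The length used is that of all annotated exons of a gene together, which is more than a single transcript holds. In the null-labelled libraries the order of mean levels in CPM per kb of exon was Lamc1 (53.8 ± 0.678), Lama5 (38.0 ± 0.606), Lamb1 (13.5 ± 0.474) and Lamb2 (9.22 ± 0.268), with the other chains described here at most 0.132 (SD, n = 3). In the wild-type-labelled libraries it was Lamc1 (71.2 ± 0.664), Lamb1 (69.5 ± 1.43), Lama5 (22.2 ± 0.356), Lamb2 (10.99 ± 0.276) and Lama4 (1.06 ± 0.105), with the others at most 0.134. Among these neighbours, Lamc1 and Lamb1 in the wild-type-labelled libraries overlapped, at 70.5 to 71.8 and 68.1 to 71.0 CPM per kb, and the ranges of the other named neighbours were apart within each group. Below these, Lamc3, Lamb3 and Lama3 overlapped each other in the null-labelled libraries, as did Lama4 and Lama2. Lama3 overlapped Lama2, and Lama2 overlapped Lamb3, in the wild-type-labelled libraries.

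The balance between alpha and beta chains turned over. Summed per kb of exon, the 5 alpha chains reached 38.0 ± 0.621 CPM per kb in null-labelled and 23.5 ± 0.407 in wild-type-labelled libraries, and the 3 beta chains 22.8 ± 0.557 in null-labelled and 80.6 ± 1.31 in wild-type-labelled libraries (SD, n = 3 each). The beta sum was below the alpha sum in each null-labelled library and above it in each wild-type-labelled library, and Lamc1 alone was above the lower of these sums in all 6. The ratio of alpha to beta was 1.65, 1.65 and 1.70 in null-labelled libraries, against 0.300, 0.287 and 0.287 in wild-type-labelled libraries. Divided by the longest coding sequence in place of all exons, a choice made after the data were seen, the ratio averaged 1.11 in null-labelled and 0.184 in wild-type-labelled libraries, so that its size depends on the length used while the order does not.

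**Figure D2:**
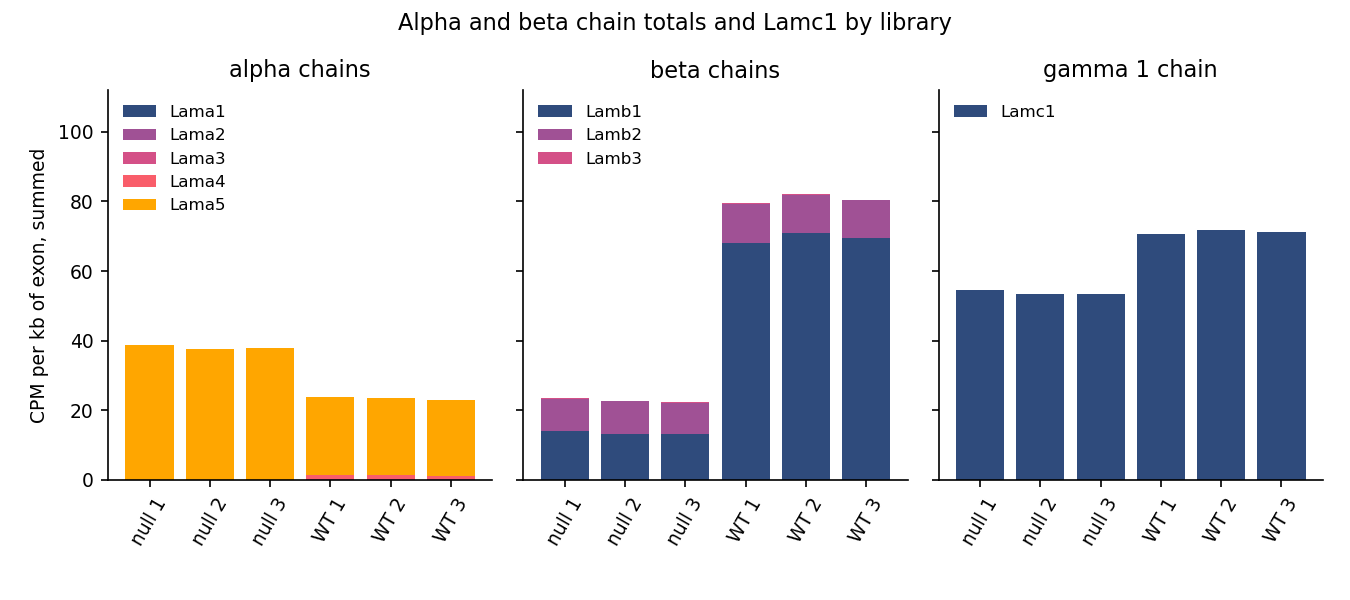
Stacked levels of the alpha and beta chain genes, and the level of the gamma chain gene Lamc1, in CPM per kb of exon, 1 bar for each library with null-labelled (null) left of wild-type-labelled (WT) libraries. Alpha totals are higher and beta totals lower in null-labelled libraries, and the share of Lamb2 in the beta total is larger there.

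Within the alpha class Lama5 made up 99.8% ± 0.038 of the level per kb in null-labelled and 94.4% ± 0.463 in wild-type-labelled libraries (SD, n = 3 each). Lama4 made up at most 0.013% in any null-labelled library, against 4.47%, 4.97% and 4.16% in the wild-type-labelled ones. Per kb of coding sequence, a length chosen after the data were seen, its share was at most 0.028% in any null-labelled library and 9.30% ± 0.789 in wild-type-labelled libraries. Within the beta class Lamb2 made up 39.6%, 41.6% and 40.0% in null-labelled libraries, against 14.2%, 13.4% and 13.3% in wild-type-labelled libraries. That larger share came with a slightly lower level of Lamb2 itself, since Lamb1 fell further. Lamb1 was 1.47 ± 0.063 times as high as Lamb2 per kb in null-labelled and 6.33 ± 0.251 times in wild-type-labelled libraries. Divided by coding length, also chosen afterwards, this ratio was 2.35 ± 0.101 in null-labelled and 10.1 ± 0.401 in wild-type-labelled libraries, so its size rests on the length used.

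Which trimers the transcripts allow was read from 13 reported laminins, with a chain taken as detected in a group at 1 CPM or more in each of its 3 libraries. By that rule 4 of the 9 laminin chains were detected in null-labelled libraries (Lama5, Lamb1, Lamb2 and Lamc1) and 7 in wild-type-labelled libraries (those 4 with Lama2, Lama3 and Lama4). Every chain was thus present for 2 of these trimers in null-labelled libraries, laminin-511 and laminin-521, and for 8 in wild-type-labelled libraries, the same 2 with laminin-211, laminin-221, laminin-311, laminin-321, laminin-411 and laminin-421. Another 5 lacked a chain under both labels: laminin-111 and laminin-121 for want of Lama1, and laminin-213, laminin-423 and laminin-523 for want of Lamc3. In the null-labelled libraries laminin-213 also lacked Lama2 and laminin-423 Lama4. Assembly and secretion were not measured, and transcript detection does not show that a trimer was made.

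Of the trimers, laminin-511 and laminin-521 had the highest level of their scarcest chain under both labels. For laminin-511 the scarcest chain was Lamb1 in null-labelled libraries, at 14.1, 13.2 and 13.3 CPM per kb, and Lama5 in wild-type-labelled libraries, at 22.6, 22.1 and 21.9 CPM per kb. For laminin-521 it was Lamb2 under both labels, at 9.22 ± 0.268 CPM per kb in null-labelled and 10.99 ± 0.276 in wild-type-labelled libraries (SD, n = 3 each). For laminin-411 and laminin-421 it was Lama4, at 0.0030 ± 0.0026 CPM per kb in null-labelled and 1.06 ± 0.105 in wild-type-labelled libraries. Laminin-211, laminin-221, laminin-311 and laminin-321 rest on Lama2 or Lama3, at 0.107 ± 0.027 and 0.134 ± 0.013 CPM per kb in the wild-type-labelled libraries, close above the threshold in CPM. With a threshold of 5 CPM, or of 0.5 CPM per kb, these 4 were lost and the null-labelled count stayed at 2, while 4 trimers remained in wild-type-labelled libraries. With 0.5 CPM the null-labelled count was 5, adding laminin-311, laminin-321 and laminin-523.

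**Figure D3:**
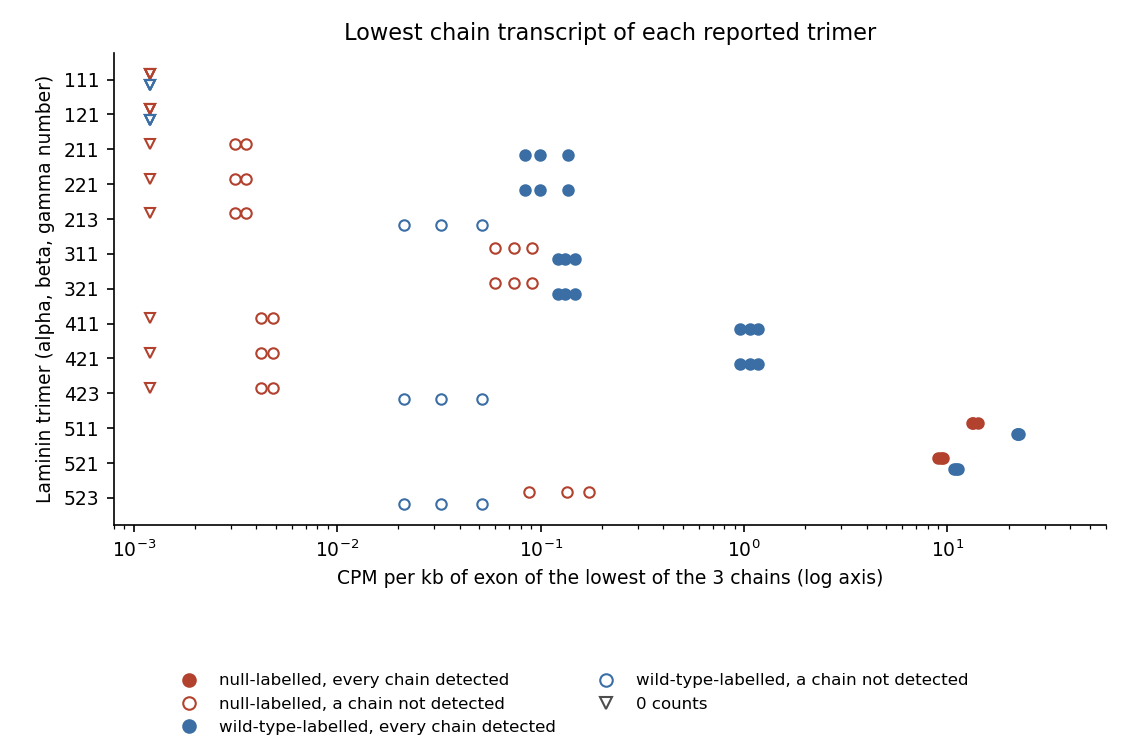
Level of the scarcest of the 3 chain transcripts of each of 13 reported laminin trimers, in CPM per kb of exon on a log axis, 1 point for each library, with null-labelled above wild-type-labelled. Filled points are trimers with every chain detected, open points lack a chain and triangles are 0 counts, and the alpha 5 trimers 511 and 521 are filled under both labels.

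The gene with the profile over the 6 libraries most like Lama5 was N4bp1, an inhibitor of the ubiquitin ligase Itch, followed by Rfk, riboflavin kinase, and Ptger1, a prostaglandin E receptor. Likeness was the root mean square difference of centred log2 CPM over the 6 libraries, which was 0.0105, 0.0148 and 0.0205 among 11157 genes. N4bp1 stood at 112.4 ± 1.37 CPM in null-labelled and 65.5 ± 1.45 CPM in wild-type-labelled libraries (SD, n = 3 each). Most like Lama4 were Mab21l1 (difference 0.109), Ppp1r13b (0.132) and Wtip (0.138), and Mab21l1 had 2 counts in null-labelled and 793 in wild-type-labelled libraries. With 2 groups of 3 libraries the likeness rests mainly on the difference between the labels.

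Of 24 listed partners of laminins in the basement membrane, 19 were tested, and 5 of these rose and 12 fell in the null-labelled cells (median log2 fold change -0.48), beside 38.1% higher and 41.1% lower of all genes tested. Nid2, the second nidogen, which links laminin to collagen IV, had 7 counts in null-labelled and 1137 in wild-type-labelled libraries (log2 fold change -7.22 ± 0.20 SE). Its relative Nid1, named after its values were seen, was higher, at 525.9 ± 4.89 CPM in null-labelled and 340.98 ± 7.77 CPM in wild-type-labelled libraries (SD, n = 3 each). Col4a5, a collagen IV chain, had 1 count in null-labelled and 1942 in wild-type-labelled libraries, a ratio of wild-type-labelled over null-labelled of 1868 with a 95% counting interval of 335 to 73800, while Col4a1 and Col4a2, also named after the fact, differed little, at 538.7 ± 2.82 and 431.6 ± 6.47 CPM in null-labelled libraries and 582.6 ± 13.6 and 439.5 ± 10.2 CPM in wild-type-labelled libraries. Hmcn1, the matrix protein hemicentin, had 2 counts in null-labelled and 1548 in wild-type-labelled libraries, a ratio in the same direction of 744.6 (206 to 6150). The related calcium-binding proteins Smoc1 and Smoc2 went opposite ways, with Smoc1 at 29.4 ± 1.30 CPM in null-labelled and 0.233 ± 0.099 CPM in wild-type-labelled libraries, and Smoc2 at 0.298 ± 0.268 CPM in null-labelled and 54.0 ± 1.18 CPM in wild-type-labelled libraries. Among the 5 genes chosen by rule, Nid2 had the largest edgeR adjusted p, 6.34e-276.

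Of 20 listed genes of laminin receptors and of proteins in complex with them, 17 were tested. Of these, 9 rose and 6 fell in the null-labelled cells (median log2 fold change 0.21). The shares over all genes tested were 38.1% higher and 41.1% lower. Itga1, an integrin subunit that binds collagens and laminins, stood at 10.3 ± 0.684 CPM in null-labelled and 2.84 ± 0.580 CPM in wild-type-labelled libraries, and Sgcb, a sarcoglycan of the dystroglycan complex, at 26.0 ± 0.709 CPM in null-labelled and 6.94 ± 0.395 CPM in wild-type-labelled libraries (SD, n = 3 each). Itga7, the laminin-binding integrin subunit of muscle, fell to 6.24 ± 0.349 CPM, against 19.3 ± 0.951 CPM in wild-type-labelled libraries, the syndecan Sdc2 to 57.2 ± 1.08 CPM, against 215.0 ± 2.14 CPM in wild-type-labelled libraries, and the sarcoglycan Sgce to 0.163 ± 0.142 CPM, against 20.3 ± 0.880 CPM in wild-type-labelled libraries. Receptors of alpha 5 laminins, named after their values were seen, differed in direction. Higher in null-labelled libraries were the integrin subunits Itga3 at 139.3 ± 4.47 CPM, against 75.4 ± 3.26 CPM in wild-type-labelled libraries, Itga6 at 266.9 ± 1.81 CPM, against 168.7 ± 3.26 CPM in wild-type-labelled libraries, and Itgb1 at 1276 ± 3.49 CPM, against 1084 ± 8.11 CPM in wild-type-labelled libraries. Among these 8 genes the largest edgeR adjusted p was 4.19e-29, that of Itgb1. Bcam, a receptor that binds the alpha 5 chain, was lower, at 0.671 ± 0.276 CPM in null-labelled and 1.71 ± 0.343 CPM in wild-type-labelled libraries (log2 fold change -1.38 ± 0.28 SE, edgeR adjusted p 1.17e-06). Itgb4, the partner subunit of Itga6 in epithelia, stood at 6.55 ± 0.523 CPM in null-labelled and 5.59 ± 0.112 CPM in wild-type-labelled libraries and did not pass (edgeR adjusted p 0.0768). Dag1, dystroglycan, likewise named after the fact, stood at 275.0 ± 2.68 CPM in null-labelled and 261.3 ± 8.92 CPM in wild-type-labelled libraries, an edgeR adjusted p of 0.00387.

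Of 16 listed enzymes that build the laminin-binding sugar of dystroglycan, 15 were tested, with 4 higher and 5 lower under TMM scaling. The shares over all genes tested were 38.1% higher and 41.1% lower. With library totals alone 7 of the enzymes were higher, and the median log2 fold change was 0.02 under TMM scaling. Large2, a glycosyltransferase that extends this sugar, named after its values were seen, had the largest difference of the list on few counts, 40 in null-labelled and 16 in wild-type-labelled libraries (log2 fold change 1.36 ± 0.41 SE, edgeR adjusted p 0.00132). Pomt1, which starts this sugar, stood at 40.4 ± 3.44 CPM in null-labelled and 32.7 ± 1.03 CPM in wild-type-labelled libraries (SD, n = 3 each), a log2 fold change of 0.30 ± 0.052 (SE). Pomgnt2, Pomgnt1, Gmppb and B4gat1 were lower, with log2 fold changes of -0.59 ± 0.093, -0.56 ± 0.042, -0.46 ± 0.082 and -0.38 ± 0.053 (SE), and the largest edgeR adjusted p of these 5 genes was 4.23e-08.

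All 8 tested of 9 listed proteases that can cleave laminin chains or activate plasminogen fell in the null-labelled cells (median log2 fold change -3.21), where 41.1% of all genes tested fell. The gelatinase Mmp2 stood at 0.572 ± 0.141 CPM in null-labelled and 157.2 ± 4.46 CPM in wild-type-labelled libraries, the urokinase Plau at 3.72 ± 0.338 CPM in null-labelled and 129.1 ± 6.99 CPM in wild-type-labelled libraries, and the membrane-bound Mmp14 at 84.2 ± 1.62 CPM in null-labelled and 332.4 ± 3.78 CPM in wild-type-labelled libraries (SD, n = 3 each). Mmp3 and the plasminogen activator Plat fell by 3.65 ± 0.10 and 2.77 ± 0.061 on the log2 scale (SE). Among these 5 the largest edgeR adjusted p was 2.75e-284.

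Of 6 listed netrins and usherin, proteins with an N-terminal domain of the laminin type, 4 were tested, with 1 higher and 3 lower, against 38.1% and 41.1% of all genes tested. Ntn1, netrin-1, fell to 33.3 ± 0.867 CPM in null-labelled libraries, against 229.0 ± 4.49 CPM in wild-type-labelled libraries, and Ntng1 to 2 counts, against 273, a ratio of wild-type-labelled over null-labelled of 131.3 (95% counting interval 36 to 1090). Ntng2 had 233 counts in null-labelled and 7 in wild-type-labelled libraries (SD, n = 3 each, for CPM). The largest edgeR adjusted p of these 3 was 8.64e-54.

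**Figure D4:**
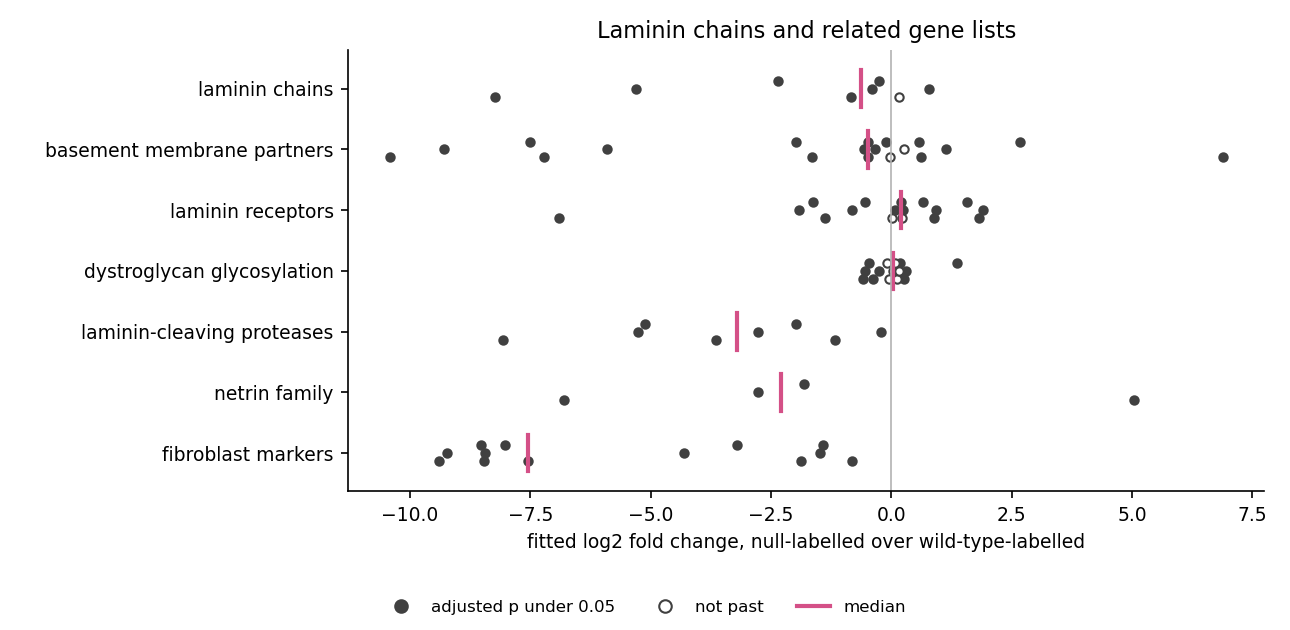
Fitted log2 fold change, null-labelled over wild-type-labelled, of each tested gene of the laminin chains, the related lists and the fibroblast markers, with 1 point for each gene, filled where the edgeR adjusted p was under 0.05, and a bar at the median. Laminin chains and genes of the receptor list lie on both sides of 0, while the proteases and the fibroblast markers lie below it.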

How the data were processed

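Gene expression was measured in 6 single-read libraries of 51 bp. Counts per gene, not normalized, were deposited by the authors, made with featureCounts 1.6.2 by exon on Ensembl release 83 of GRCm38 (mm10 names), per the file headers. The other value used, the exonic length in bases, is the authors' deposited featureCounts length. The submitters' processing notes name featureCounts 1.2.6, unlike the headers, with Subread 1.6.2, FastQC 0.11.2 and Trimmomatic 0.33. Strand and multimapping options were not set, per the file headers, and by default a read that falls in exons of several genes is not counted.

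Of 46983 genes, 98.9% had a symbol. edgeR 4.0.16 (R 4.3.3) tested 15199 genes after filterByExpr, with TMM factors and the robust quasi-likelihood F-test, 3 null-labelled against 3 wild-type-labelled libraries, adjusted by Benjamini and Hochberg over all genes at 0.05. The SE is the log2 fold change over the square root of F. Groups with 1 to 3 counts are given as ratios with exact binomial 95% intervals. Precision is limited by total counts of 15598566 to 23681718. The test was run on simulated counts with the same dispersion for every gene and few changed genes, unlike these data. There it called 62% of 50 genes changed 1.2-fold, 100% of 50 changed 4-fold and 11 of 14999 unchanged genes. Because its settings differ, this run does not show how well the p-values hold here.

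The chains and lists were chosen with earlier results of these data known. Genes of the lists not reported here, 2 in all, were left out of the counts, and trimers that need a chain not described were left out too. Named were all chains, Sphk2, up to 5 called members of each related list with the largest differences and an average log2 CPM of at least 1, up to 2 markers of each cell type by level, and the 3 genes most like the chain that rose most and the one that fell most. Alternatives were other scalings (DESeq2 1.42.0 size factors, library totals), DESeq2, limma-voom (limma 3.58.1), other filters, a replicate block, a threshold of 0.01, other detection thresholds, other lengths and leaving out each library.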

Additional observations from a re-analysis of the deposited data

How the results depend on the processing

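The counts of laminin chains higher (1) and lower (6) were the same under every alternative scaling, tool, filter and threshold tried and without any single library. The replicate numbers are only labels: same-numbered libraries had correlations of deviations of 0.0123, -0.0028 and 0.0181, and with the replicate block 5765 genes were higher and 6238 lower, against 5795 and 6245 without it, and the chain counts stayed at 1 and 6. Lamb3, not past the test, turned to -0.035 without wild-type-labelled replicate 1 (0.19 at most when single libraries were left out). Lamc3, called higher otherwise, was not among the genes tested with a filter of over 1 CPM (0 called). Of the dystroglycan enzymes 7 were higher with library totals. Trimer counts were 5 (null-labelled) with 0.5 CPM, and 4 (wild-type-labelled) with 5 CPM and with 0.5 CPM per kb, and 2 and 8 without any single library.

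Undivided by length, Lamb1 made up 70.3% of beta chains in null-labelled and 91.1% in wild-type-labelled libraries, and Lamb2 29.4% in null-labelled and 8.83% in wild-type-labelled libraries. Per kb of coding sequence, chosen after the data were seen, the shares were 69.8% and 90.9% for Lamb1 and 29.7% and 8.99% for Lamb2 in null-labelled and wild-type-labelled libraries, and 89.4% for Lama5 in wild-type-labelled libraries. The alpha to beta ratio was 2.27 in null-labelled and 0.355 in wild-type-labelled libraries undivided, and 1.11 in null-labelled and 0.184 in wild-type-labelled libraries per coding kb. Lamb1 over Lamb2 was 2.40 and 10.3 undivided and 2.35 and 10.1 per coding kb in null-labelled and wild-type-labelled libraries, and Lama4's share 0.0173% and 9.30% per coding kb. These values differ between the choices of length because the divisor differs. The differences between the labels kept their direction under each choice. Without single libraries, shares in null-labelled libraries were 99.78% to 99.81% for Lama5, 58.9% to 59.9% for Lamb1 and 39.8% to 40.8% for Lamb2. In wild-type-labelled libraries they were 94.3% to 94.7%, 86.1% to 86.5% and 13.4% to 13.8%. Lamb1 over Lamb2 was 1.444 to 1.504 in null-labelled and 6.25 to 6.48 in wild-type-labelled libraries, and the share of Lama4 0.00548% to 0.0119% and 4.31% to 4.72%. Alpha to beta ratios were 1.65 to 1.68 in null-labelled and 0.287 to 0.294 in wild-type-labelled libraries. Depth limits Lama1, Lama2, Lama3, Lamb3 and Lamc3, which rest on at most 97 counts in a group.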
